A study of Mus musculus with 16 samples.

Results

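GABA-A receptors are the chloride channels through which most fast inhibition in the hippocampus runs, and the genes described here code for 7 of their subunits: *Gabra2*, *Gabra3*, *Gabra4* and *Gabra5* (alpha subunits), *Gabrb1* and *Gabrb2* (beta subunits) and *Gabrd* (the delta subunit). They were picked by symbol from the 48397 gene symbols of the count files, all 7 were in the files, and all 7 passed the filter on low counts among 17038 genes tested. RNA was sequenced from 16 libraries of primary hippocampal neurons of wild-type CD1 mice, cultured from pups at P0 to P2 and treated with cytosine arabinoside (AraC, which kills dividing cells) at 3 DIV. The neurons received 10-fold concentrated conditioned medium at 10 and 13 DIV and were lysed at 17 DIV, and there were 4 libraries in each of 4 groups, which the study describes as independent cultures. In the apoE2, apoE3 and apoE4 groups the medium came from immortalized astrocytes homozygous for the human *APOE* allele of that name, and in the control neurons it came from immortalized *Apoe*-/- astrocytes, so all groups carry whatever else such astrocytes secrete. The conditioned medium of each genotype came from an astrocyte line, so that differences between the lines other than the apoE allele and the allele itself cannot be told apart.

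A GABA-A receptor is a pentamer, most often of alpha, beta and gamma subunits. GABA binds where a beta meets an alpha subunit, and the gamma subunit holds the receptor at the synapse. The alpha subunit sets much of the rest: alpha2 receptors sit at synapses on the cell body and axon initial segment of pyramidal neurons, alpha5 receptors are typical of the hippocampus and lie largely outside synapses, and alpha4 pairs with the delta subunit in receptors of dentate granule neurons that carry a tonic current and respond to neurosteroids. Young neurons express much alpha2, alpha3 and alpha5.

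The genes lie in clusters with other subunit genes on the mouse genome build mm10 (GRCm38). *Gabra2* (chr5:70957597-71095849), *Gabra4* (chr5:71569749-71658308) and *Gabrb1* (chr5:71658113-72149037) share a cluster with *Gabrg1*. *Gabrb2* (chr11:42419757-42629028) lies near *Gabra6*, *Gabra5* (chr7:57407672-57510059) near *Gabrg3*, and *Gabra3* (chrX:72432681-72656848) near *Gabre* and *Gabrq*. *Gabrd* (chr4:155384980-155398112) stands alone. *Gabra4* and *Gabrb1* run on opposite strands from RefSeq start sites 387 bases apart, and the exons of the GENCODE M21 annotation that they share make up 0.756% of *Gabra4* and 0.332% of *Gabrb1*. *Gabra5* shares 4.98% of its exon length with the opposite-strand gene *Gm9962*. Whether the counting used the strand is not given in the sources used here, and without it reads from these shared stretches cannot be told apart.

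RefSeq promoter windows, which run from 250 bases before to 50 bases after a start site, matched 6 of the 7 genes with 10 windows. The windows of *Gabra2* and *Gabra4* and the first of 3 of *Gabrb2* are shown because these genes carry the differences with apoE3 described below, and the first of *Gabrb1* because its start site is the one near that of *Gabra4*. They are given 5′ to 3′ on the strand of the gene, on GRCm38.p6, at chr5:71095800-71096099 (*Gabra2*, minus strand), chr5:71658259-71658558 (*Gabra4*, minus strand), chr5:71657671-71657970 (*Gabrb1*, plus strand) and chr11:42420190-42420489 (*Gabrb2*, plus strand). Capitals mark matches on either strand to the TATA box TATAAA, the CCAAT box CCAAT and the GC box GGGCGG; the cAMP response element TGACGTCA and the E-box CACGTG were also searched.
Gabra2: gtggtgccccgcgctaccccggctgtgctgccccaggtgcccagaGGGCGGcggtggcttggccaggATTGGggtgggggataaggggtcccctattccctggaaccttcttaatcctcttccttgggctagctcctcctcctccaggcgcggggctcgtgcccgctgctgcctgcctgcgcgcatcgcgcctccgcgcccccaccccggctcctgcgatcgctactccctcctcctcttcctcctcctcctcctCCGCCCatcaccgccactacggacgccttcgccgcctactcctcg
Gabra4: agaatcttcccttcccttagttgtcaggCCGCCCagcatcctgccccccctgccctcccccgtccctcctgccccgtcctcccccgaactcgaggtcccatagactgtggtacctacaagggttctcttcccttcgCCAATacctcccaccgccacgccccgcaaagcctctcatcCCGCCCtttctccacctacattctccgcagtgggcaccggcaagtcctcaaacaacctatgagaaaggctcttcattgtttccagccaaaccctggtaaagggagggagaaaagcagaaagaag
Gabrb1: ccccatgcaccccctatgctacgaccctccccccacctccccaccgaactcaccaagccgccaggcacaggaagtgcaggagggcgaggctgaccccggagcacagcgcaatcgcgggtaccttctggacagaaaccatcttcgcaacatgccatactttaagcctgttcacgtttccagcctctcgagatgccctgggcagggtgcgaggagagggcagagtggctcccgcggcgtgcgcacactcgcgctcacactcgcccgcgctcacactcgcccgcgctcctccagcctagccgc
Gabrb2: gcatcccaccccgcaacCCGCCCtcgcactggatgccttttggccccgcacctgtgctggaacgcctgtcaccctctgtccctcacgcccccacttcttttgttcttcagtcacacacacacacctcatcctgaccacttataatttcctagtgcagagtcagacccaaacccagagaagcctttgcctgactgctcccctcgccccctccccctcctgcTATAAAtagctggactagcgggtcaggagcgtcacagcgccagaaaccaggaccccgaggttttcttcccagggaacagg
The GC content was 70% for *Gabra2*, 58.7% for *Gabra4*, 66% for *Gabrb1* and 59% for *Gabrb2*, against a median of 52.7% over 32851 promoter windows of the same length. They held 25, 12, 25 and 11 CpG dinucleotides in that order, against a median of 7. Among windows not shown, those of *Gabra3* had a GC content of 39.3% and 43% with 0 CpG each. The second of *Gabrb1* had 50.3% with 9 CpG, and that of *Gabra5* 56.7% with 13. *Gabra2* and *Gabra4* each had 2 GC boxes and 1 CCAAT box, *Gabrb2* had 1 GC box and 1 TATA box near its start, and no searched motif was found in the *Gabrb1* window. The other 2 windows of *Gabrb2* had a GC content of 54.7% and 41%, and 1 of them held a CCAAT box and no other searched motif was found in them. Over all windows, 35.7% held a GC box, 37.4% a CCAAT box, 13.6% a TATA box, 7.15% the E-box and 1.79% the cAMP response element, so a match describes the window and is no sign of a bound factor.

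The libraries held 14087723 to 34248172 reads on genes (median 22221832), and 38.4 to 73.7% of a library's reads fell on no single gene. The shallowest were apoE3 replicate 1 (14087723 reads) and apoE3 replicate 4 (14797392 reads). In these, 71.6% and 67.1% of reads fell on no single gene, against 51.4 to 64.7% in the controls. The highest percentage, 73.7%, was in apoE2 replicate 1. Levels are given as counts divided by the TMM-scaled library size (CPM). All marker lists had counts in every group, with the 6 neuron markers at 2849 to 6375 CPM summed, the 8 astrocyte markers at 1309 to 6581 CPM and the 6 microglia markers at 6.28 to 35.0 CPM. Libraries that share a replicate number deviated together, so a treated library and the control library of the same number are spoken of as a pair. Number 1 stood out least: its libraries correlated at 0.362 to 0.552, while libraries of different numbers reached 0.569. The labels do not state what a number stands for. Each comparison was therefore fitted without the number, which is the main test, and with the number as a block. In a bulk sample, fewer cells of a type and less RNA per cell cannot be told apart.

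In the control neurons *Gabra5* and *Gabra2* were the most abundant of the 7 mRNAs and *Gabrd* the least. Per kb of exon, the scale on which genes can be compared, *Gabra5* stood at 99.2 ± 20.8 CPM per kb (SD, n = 4) and *Gabra2* at 66.9 ± 20.3, with ranges that overlapped. *Gabrb2* (25.3 ± 3.77), *Gabrb1* (24.6 ± 6.29) and *Gabra4* (22.6 ± 4.50) followed at nearly the same level, and their ranges overlapped. *Gabra3* (8.36 ± 3.77) and *Gabrd* (4.71 ± 2.06) were lowest and overlapped each other. Of 9 other GABA-A and rho subunit genes examined, *Gabrg3*, *Gabrg1*, *Gabrr1* and *Gabrq* were at 0.277 to 1.17 CPM per kb, below each of the 7, and the other 5 reached at most 0.0663 CPM per kb in any control library.

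**Figure D1:**
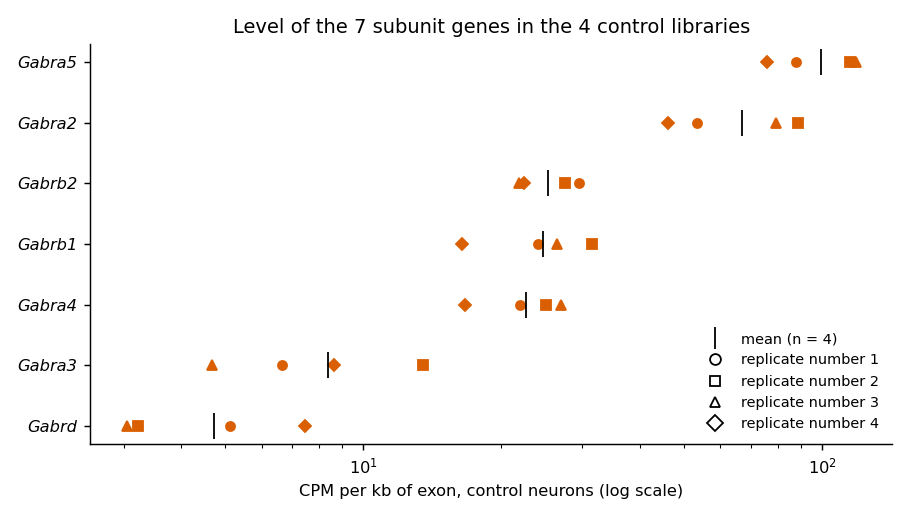
Level of the 7 subunit genes in the 4 control libraries, as CPM per kb of exon on a log axis, with 1 symbol per library and a vertical mark at the mean. The means span from 4.71 CPM per kb (*Gabrd*) to 99.2 (*Gabra5*).

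In the comparison with apoE3, all 7 subunit mRNAs had a lower fitted level than in the control neurons, and *Gabra4*, *Gabrb2* and *Gabra2* fell when the replicate number was a block. Without the block edgeR called 0 of the 7 at an adjusted p under 0.05 (Benjamini-Hochberg over all genes tested), where it called 0.00587% of all genes tested. With the block it called 3, all lower, where 3.73% of all genes tested were called lower and 11.7% in either direction. The median log2 fold change of the 7 was −0.56 without and −0.60 with the block, against 0.02 over all genes tested in both fits. With the same block DESeq2 called 5 lower, adding *Gabra3* and *Gabrd*, where it called 6.05% of all genes tested lower, and without the block it called 0 of the 7 and 0.352% of all genes tested. With any isoform, no member met the study's own criterion of a 2-fold change with an unadjusted p under 0.05, which in edgeR without the block 0.722% of all genes tested met with apoE2, 1.96% with apoE3 and 1.15% with apoE4.

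*Gabra4*, the alpha subunit that partners delta, was at 133, 152, 164 and 101.3 CPM in control replicates 1 to 4 and at 91.2, 128, 100.9 and 46.7 CPM in the apoE3 replicates. Each apoE3 library was below the control library of its number, with ratios from 0.461 to 0.837, while the groups overlapped. The log2 fold change was −0.59 ± 0.26 (SE, edgeR adjusted p = 0.767) without and −0.63 ± 0.12 (edgeR adjusted p = 0.00505) with the block. With 1 library left out, the value without the block ran from −0.79 (without apoE3 replicate 2) to −0.37 (without apoE3 replicate 4). With apoE2 *Gabra4* was at 96.3, 116, 124 and 83.0 CPM and with apoE4 at 106, 115, 143 and 81.3 CPM. These also lay below the control in 4 of 4 pairs but passed in neither fit, with blocked log2 fold changes of −0.38 ± 0.12 (edgeR adjusted p = 0.136) and −0.31 ± 0.12 (edgeR adjusted p = 0.210).

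*Gabrb2*, a beta subunit common in the mature brain, was at 188, 175, 139 and 143 CPM in control replicates 1 to 4 and at 112, 142, 107 and 68.9 CPM with apoE3. Only apoE3 replicate 2 reached the range of the controls. Its log2 fold change was −0.58 ± 0.19 (edgeR adjusted p = 0.608) without and −0.60 ± 0.11 (edgeR adjusted p = 0.00348) with the block, the smallest adjusted p among the 7. With apoE2 it was at 151, 141, 124 and 123 CPM and with apoE4 at 156, 147, 138 and 107 CPM, below the control in every pair. The blocked log2 fold changes there were −0.25 ± 0.11 (edgeR adjusted p = 0.338) and −0.24 ± 0.11 (edgeR adjusted p = 0.294), which did not pass.

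*Gabra2*, the second most abundant of the 7 per length, was at 408, 677, 607 and 352 CPM in control replicates 1 to 4 and at 316, 608, 476 and 209 CPM with apoE3. The groups overlapped widely, since replicates 2 and 3 were high and 1 and 4 low in each group, but each apoE3 library was below its control partner. The log2 fold change was −0.34 ± 0.33 (edgeR adjusted p = 0.816) without and −0.39 ± 0.11 (edgeR adjusted p = 0.0291) with the block. With 1 library left out, the value without the block ran from −0.61 (without apoE3 replicate 2) to −0.13 (without apoE3 replicate 4). With apoE4 it was at 341, 535, 480 and 250 CPM, also below the control in 4 of 4 pairs, with a blocked log2 fold change of −0.36 ± 0.11 (edgeR adjusted p = 0.0921). With apoE2 it was at 378, 594, 550 and 380 CPM, and the blocked value of −0.07 ± 0.11 (edgeR adjusted p = 0.845) did not pass.

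**Figure D2:**
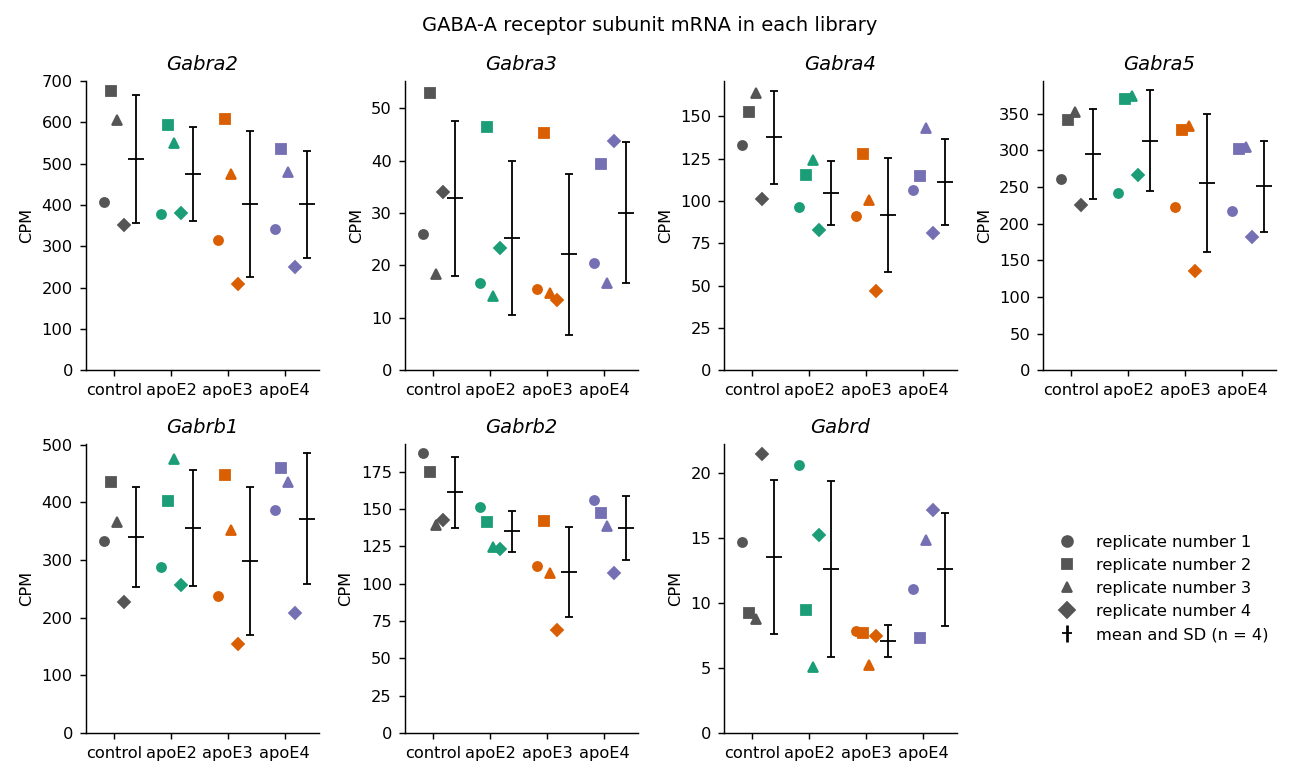
CPM of each of the 7 subunit mRNAs in every library (linear axes from 0), with 1 symbol per replicate number, colours for the 4 groups and black bars for the mean and SD (n = 4). For *Gabra2*, *Gabra5* and *Gabrb1* replicates 2 and 3 lie above 1 and 4 in every group, and the 4 apoE3 libraries of *Gabrd* lie below all 4 controls.

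*Gabrd* was the 1 member whose apoE3 libraries all lay below all control libraries, at 7.85, 7.71, 5.26 and 7.48 CPM against 14.7, 9.26, 8.76 and 21.5 CPM. Such a separation was found for 1.19% of all genes tested. The log2 fold change of −0.94 ± 0.40 had an unadjusted edgeR p of 0.0338 and an adjusted p of 0.767, and with the block it was −0.84 ± 0.29 (edgeR adjusted p = 0.0738), so *Gabrd* did not pass in either fit. It rested on 103 to 410 reads per control or apoE3 library. With apoE2 (20.6, 9.48, 5.09 and 15.2 CPM) and apoE4 (11.1, 7.30, 14.9 and 17.2 CPM) the levels ran across the control range, with blocked log2 fold changes of −0.14 ± 0.28 and −0.03 ± 0.28.

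*Gabra3*, an alpha subunit of young neurons, was at 26.0, 52.9, 18.4 and 33.9 CPM in the controls and at 15.5, 45.2, 14.7 and 13.3 CPM with apoE3. It was lower in 4 of 4 pairs, and replicate 2 was far above the other apoE3 libraries. The log2 fold change was −0.56 ± 0.49 (edgeR adjusted p = 0.812) without and −0.60 ± 0.20 (edgeR adjusted p = 0.0661) with the block. Without apoE3 replicate 2 the value without the block was −1.18, without control replicate 2 it was −0.23, and without apoE3 replicate 4 the blocked value was −0.38. With apoE2 it was at 16.7, 46.5, 14.2 and 23.3 CPM, lower in 4 of 4 pairs with a blocked value of −0.43 ± 0.20 (edgeR adjusted p = 0.371). With apoE4 it was at 20.5, 39.4, 16.7 and 43.8 CPM, where the blocked value was −0.10 ± 0.20 (edgeR adjusted p = 0.852).

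*Gabra5* and *Gabrb1* had the smallest fitted differences of the 7 with apoE3. *Gabra5* was at 261, 342, 353 and 225 CPM in the controls and at 223, 328, 334 and 136 CPM with apoE3, where replicate 4 lay well below the control range and replicate 1 just under it. Its blocked log2 fold change was −0.26 ± 0.11 (edgeR adjusted p = 0.149) with apoE3, 0.09 ± 0.11 (edgeR adjusted p = 0.817) with apoE2 and −0.24 ± 0.11 (edgeR adjusted p = 0.289) with apoE4. *Gabrb1* was at 332, 436, 365 and 227 CPM in the controls, at 237, 447, 353 and 155 CPM with apoE3 and at 386, 459, 435 and 208 CPM with apoE4. Its blocked log2 fold changes were −0.25 ± 0.13 (edgeR adjusted p = 0.214) with apoE3, 0.07 ± 0.13 (edgeR adjusted p = 0.893) with apoE2 and 0.11 ± 0.13 (edgeR adjusted p = 0.725) with apoE4. With the interval of the blocked fit, *Gabrb1* lay between −0.53 and 0.02 with apoE3, which leaves a decrease as large as that of *Gabra2* within the error.

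**Figure D3:**
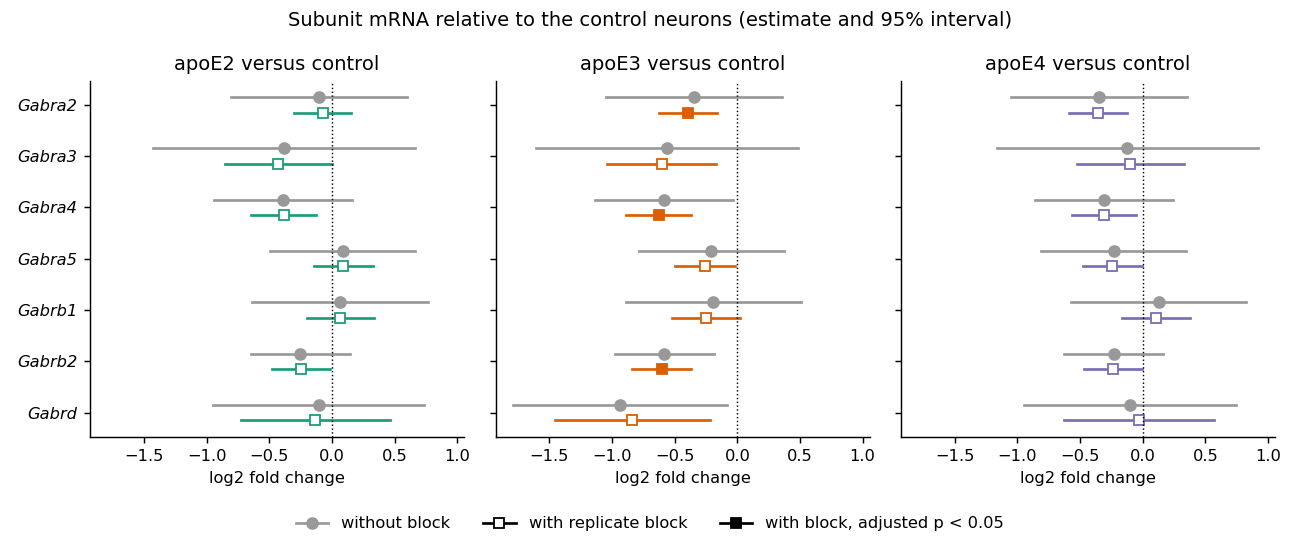
Log2 fold change of the 7 subunit mRNAs in each isoform group relative to the control, with 95% intervals, from edgeR without the block (grey circles) and with the replicate number as a block (coloured squares, filled at an adjusted p under 0.05). The 3 filled squares are *Gabra2*, *Gabra4* and *Gabrb2* with apoE3, at −0.39, −0.63 and −0.60, and the intervals are narrower with the block.

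No member passed with apoE2 or apoE4 in either edgeR fit. With apoE2 edgeR called 0 of the 7 without the block, where it called 0% of all genes tested, and 0 with the block, where it called 1.73%. The median log2 fold change of the 7 was −0.11 against 0.01 over all genes tested. With apoE4 it called 0 of the 7 in both fits, against 0.194% of all genes tested without and 3.30% with the block, and the median was −0.23 against 0.00. An unadjusted p under 0.05 with the block, in either direction, was found for 3 members with apoE2 (*Gabra3*, *Gabra4* and *Gabrb2*; background 13.3% of all genes tested), for 6 with apoE3 (all but *Gabrb1*; background 27.5%) and for 4 with apoE4 (*Gabra2*, *Gabra4*, *Gabra5* and *Gabrb2*; background 16.6%), and each of these values was lower than in the control. DESeq2 without the block called 0 of the 7 with apoE2 (background 0.170%) and with apoE4 (background 0.534%). With the block it called 0 with apoE2 (background 4.16%) and *Gabra2* with apoE4 (lower; background 0.786%). Without the block an unadjusted edgeR p under 0.05 was found for *Gabra4*, *Gabrb2* and *Gabrd* with apoE3 (all lower; background 2.91% lower and 6.43% in either direction) and for no member with apoE2 (background 2.79%) or apoE4 (background 3.30%). *Gabra4* and *Gabrb2* were lower in every pair with each isoform, as were 1.73% of all genes tested. The 3 comparisons share the same 4 control libraries, so these counts are not independent of each other.

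Between isoforms edgeR and DESeq2 called 0 of the 7 in any comparison, with or without the block, and without it no member had an unadjusted edgeR p under 0.05, which 2.28% of all genes tested had between apoE3 and apoE2, 5.34% between apoE4 and apoE2 and 4.70% between apoE4 and apoE3. Without the block edgeR called 0% of all genes tested between apoE3 and apoE2, 0.252% between apoE4 and apoE2 and 0.147% between apoE4 and apoE3, and with the block 1.31%, 4.44% and 1.76%. DESeq2 called 0.0528%, 0.957% and 0.405% in these comparisons without the block and 4.26%, 7.29% and 4.13% with it. At an unadjusted p under 0.05 with the block, 5 members were lower with apoE3 than with apoE2 (background 7.14%): *Gabrd* by −0.70 ± 0.29 on the log2 scale, *Gabrb2* by −0.36 ± 0.11, *Gabra5* by −0.35 ± 0.11, *Gabrb1* by −0.32 ± 0.13 and *Gabra2* by −0.32 ± 0.11. At the same threshold 5 members were higher with apoE4 than with apoE3 (background 8.45%): *Gabrd* by 0.81 ± 0.29, *Gabra3* by 0.50 ± 0.21, *Gabrb2* by 0.37 ± 0.11, *Gabrb1* by 0.36 ± 0.13 and *Gabra4* by 0.32 ± 0.12. *Gabrd*, *Gabrb2* and *Gabrb1* are in both lists, and both comparisons use the same apoE3 libraries. *Gabra5* (−0.33 ± 0.11) and *Gabra2* (−0.28 ± 0.11) were lower with apoE4 than with apoE2 (background 8.43%). None of these passed the adjustment, for which the smallest edgeR adjusted p values were 0.124, 0.118 and 0.114. A difference between isoforms in their distance from the control is therefore not shown for any member.

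The 4 alpha subunit mRNAs were also compared with each other, as the share of each gene in their sum per kb of exon. In the control neurons *Gabra5* held 50.6% ± 2.08 (SD, n = 4), *Gabra2* 33.5% ± 2.57, *Gabra4* 11.6% ± 1.06 and *Gabra3* 4.35% ± 1.76. In raw counts, without division by exon length, *Gabra2* held the largest part of the sum, 51.8% against 30.5% for *Gabra5*. The share of *Gabra4* was 12.9, 10.4, 11.7 and 11.3% in control replicates 1 to 4, 10.48, 8.15, 9.20 and 8.60% with apoE2 and 11.1, 9.43, 8.51 and 9.12% with apoE3. It was lower than in the control in 4 of 4 pairs with apoE2 and with apoE3, while the groups overlapped (exact permutation test, two-sided p = 0.0571 for each, adjusted p = 0.229 over 12 tests). The share of *Gabra5* was 54.0, 53.4, 56.8 and 56.3% with apoE2 against 51.7, 47.5, 51.6 and 51.5% in the controls, so that all apoE2 libraries lay above all controls (exact permutation p = 0.0286, adjusted p = 0.229). With apoE3 it was 55.4, 49.6, 57.6 and 54.3%, higher in 4 of 4 pairs (exact permutation p = 0.114, adjusted p = 0.343). With apoE4 it was 52.0, 50.7, 53.1 and 51.6%, also higher in 4 of 4 pairs (exact permutation p = 0.371, adjusted p = 0.648), and *Gabra4* held 11.3% (exact permutation p = 0.8286). For *Gabra2* and *Gabra3* the differences from the control were between −1.76 and 0.744 percentage points, with adjusted p of at least 0.648. With 4 libraries against 4 the smallest possible p is 0.0286, and no share passed the adjustment.

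**Figure D4:**
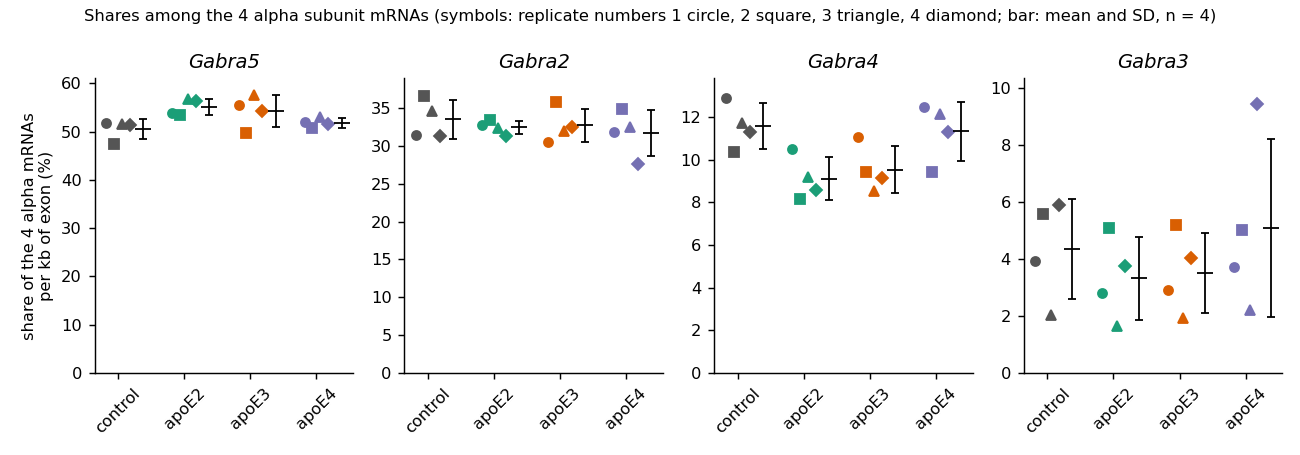
Share of each of the 4 alpha subunit genes in their summed mRNA per kb of exon, in percent, for every library (symbols by replicate number, axes from 0, bars for mean and SD, n = 4). The 4 apoE2 libraries lie above the 4 controls for *Gabra5*, and for *Gabra4* the highest apoE2 library (10.48%) is level with the lowest control.

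Most of the variation of these mRNAs lay between replicate numbers, except for *Gabrb2* and *Gabrd*. Of the variance of log2 CPM over the 16 libraries, a median of 70.8% of the 7 members lay between numbers and 14.96% between groups, against 56.1% and 14.4% over all genes tested. *Gabra2*, *Gabra4*, *Gabra5* and *Gabrb1* were higher in numbers 2 and 3 than in 1 and 4; *Gabra2* averaged 361, 604, 528 and 298 CPM over numbers 1 to 4. *Gabrd* ran the other way, at 13.6, 8.43, 8.50 and 15.3 CPM, and *Gabra3* was highest in number 2. *Gabrd* and *Gabrb2* differed least by number. *Gabrd* had 36.7% between numbers and 28.8% between groups, and *Gabrb2* had 38.5% between numbers and 45.3% between groups.

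The genes whose pattern over the 16 libraries was most like each member were found by the root mean square distance of log2 CPM around the gene's own mean. *Gabrb2* had *Tub* among its 2 nearest (0.129 on the log2 scale, against a median of 0.469 over all genes tested). *Gabra5* was nearest to *Gria2*, an AMPA receptor subunit (0.0666), and *Ncoa7* (0.0725), and *Gabra2* to *Nlgn1*, a synaptic adhesion molecule (0.0897), and *Ppp3ca*, the catalytic subunit of calcineurin (0.0900). *Gabrb1* was nearest to the potassium channel gene *Kcnma1* (0.114) and *Cyfip2* (0.124), and *Gabra4* to the protocadherin *Pcdh20* (0.122) and *Edil3* (0.131). *Gabra3* (*Slc7a3*, 0.313, and *Plcxd2*, 0.332) and *Gabrd* (*Reln*, 0.366, and *Gm16793*, 0.369) had no gene as near.

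Of the 9 other subunit genes examined, 4 were tested, and none was called with any isoform, with or without the block. With apoE3 they had blocked log2 fold changes of −0.73 ± 0.34 (*Gabrq*, edgeR adjusted p = 0.181), 0.27 ± 0.16 (*Gabrg1*, edgeR adjusted p = 0.308), 0.21 ± 0.19 (*Gabrg3*, edgeR adjusted p = 0.499) and −0.01 ± 0.30 (*Gabrr1*, edgeR adjusted p = 0.987), and *Gabrq* was the 1 of them with an unadjusted p under 0.05.

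Without the block edgeR and DESeq2 called 0 of the 47 pathway genes examined and tested, those 4 subunits included, in any comparison with the control, and at an unadjusted edgeR p under 0.05 apoE2 gave 2 of them (4.26%, against 2.79% of all genes tested), apoE3 2 (4.26% against 6.43%) and apoE4 1 (2.13% against 3.30%). With the block edgeR called 1 with apoE2 (2.13%, against 1.73% of all genes tested), 3 with apoE3 (6.38% against 11.7%) and 1 with apoE4 (2.13% against 3.30%). DESeq2 with the block called 3 (6.38% against 4.16%), 6 (12.8% against 15.8%) and 1 (2.13% against 5.65%). At an unadjusted p under 0.05 with the block, edgeR gave 4 with apoE2 (8.51% against 13.3%), 18 with apoE3 (38.3% against 27.5%) and 4 with apoE4 (8.51% against 16.6%). With apoE3 the share of the pathway genes was thus below that of all genes tested at the adjusted threshold and above it at the unadjusted one. Of 20 tested genes of the inhibitory postsynapse and receptor trafficking, *Gphn* (gephyrin, the scaffold of inhibitory synapses; blocked log2 fold change −0.26 ± 0.08, edgeR adjusted p = 0.0451) fell with apoE3, and the list's median was −0.03. *Hap1*, which aids receptor recycling, had the smallest p of this list without the block with apoE2 (−0.60 ± 0.20, edgeR adjusted p = 1) and with apoE3 (−0.43 ± 0.20, edgeR adjusted p = 0.770), and it did not pass with the block (edgeR adjusted p = 0.0973 and 0.105). The transport adaptor *Trak2* had values of 0.32 ± 0.17 with apoE2 and 0.30 ± 0.17 with apoE3, and with apoE4 *Nsf*, which recycles vesicle fusion complexes, was at −0.22 ± 0.22 and *Trak1* at 0.09 ± 0.10, all without a call. Of 6 tested genes for GABA synthesis, packaging, uptake and breakdown, *Gad1*, which makes GABA, fell with apoE3, with a blocked value of −0.69 ± 0.13 (edgeR adjusted p = 0.00381). It did not pass with apoE2 (−0.49 ± 0.13, edgeR adjusted p = 0.0677). The other GABA-making enzyme, *Gad2*, was at 0.05 ± 0.10 with apoE4 and *Aldh5a1*, of GABA breakdown, at −0.18 ± 0.08 with apoE3, with blocked edgeR adjusted p values of 0.839 and 0.172. The transporter *Slc6a11* was at 0.23 ± 0.11 with apoE2 and −0.13 ± 0.11 with apoE4, with blocked edgeR adjusted p values of 0.414 and 0.621. All 6 had a negative value with apoE3, with a median of −0.18.

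Of 11 tested genes of the chloride gradient, on which the direction of the GABA response depends, *Wnk2* rose with apoE2 (blocked 0.56 ± 0.12, edgeR adjusted p = 0.0350) and *Wnk1* with apoE4 (0.56 ± 0.14, edgeR adjusted p = 0.0417); both code for kinases that regulate the chloride transporters. The transporters were not called, with *Slc12a2* (NKCC1, which brings chloride in) at 0.28 ± 0.10 (edgeR adjusted p = 0.0744) and *Slc12a5* (KCC2, which takes it out) at −0.34 ± 0.14 (edgeR adjusted p = 0.118) with apoE3, nor were the transporter *Slc12a7* with apoE4 (0.60 ± 0.22, edgeR adjusted p = 0.180) or the kinase *Stk39* with apoE2 (0.16 ± 0.09, edgeR adjusted p = 0.514), all with the block. *Wnk1* was at 0.30 ± 0.14 with apoE3 (edgeR adjusted p = 0.187). *Slc12a5* was named after its values were seen. Of 6 genes of the metabotropic GABA-B receptor and its auxiliary subunits, *Gabbr1* fell with apoE3 (−0.31 ± 0.10, edgeR adjusted p = 0.0494), while the auxiliary subunit *Kctd16* was at −0.51 ± 0.20 (edgeR adjusted p = 0.117). With apoE2 and apoE4 *Kctd12* was at 0.23 ± 0.16 and −0.15 ± 0.16 and *Kctd8* at −0.16 ± 0.17 and −0.31 ± 0.18, with no call.

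Cell type markers moved in the same comparisons, and the part of the culture's make-up in the values above was not tested. Of 64 markers tested, edgeR without the block called 0 with any isoform, against 0%, 0.00587% and 0.194% of all genes tested (apoE2, apoE3 and apoE4). At an unadjusted p under 0.05 it gave 3, 4 and 3, against 2.79%, 6.43% and 3.30% of all genes tested. DESeq2 without the block called 1 (1.56%, against 0.170% of all genes tested), 1 (1.56% against 0.352%) and 0 (against 0.534%). With the block edgeR called 1 (1.56%, against 1.73% of all genes tested), 22 (34.4% against 11.7%) and 6 (9.38% against 3.30%). DESeq2 with the block called 7 (10.9% against 4.16%), 28 (43.8% against 15.8%) and 10 (15.6% against 5.65%). With apoE3 the 8 astrocyte markers summed to 1700 to 6581 CPM, against 1412 to 3162 in the control, and 7 of the 8 rose in the blocked edgeR fit, *Gfap* by 1.40 ± 0.19 on the log2 scale. The apoE3 replicate 4 library had the highest astrocyte sum, the lowest neuron sum (2849 CPM) and the lowest apoE3 level of 6 of the 7 members. The neuron markers summed to 2849 to 5819 CPM with apoE3 and to 3727 to 5830 in the control, and of the 6, *Snap25* fell and *Tubb3* rose in that fit, in which the calls below were made too. The 12 interneuron markers summed to 312 to 518 and 396 to 607 CPM, and *Gad1*, *Dlx1*, *Lhx6* and *Vip* fell while *Pvalb* rose. The 5 dentate granule markers summed to 192 to 335 and 243 to 543 CPM, and *Dock10* and *Calb1* fell. The 6 markers of excitatory neurons summed to 595 to 2098 and 1006 to 2192 CPM, and *Slc17a6* rose, while the other 5 had negative values without a call and the list's median was −0.35. The 8 oligodendrocyte lineage markers summed to 139 to 846 and 107 to 438 CPM, of which 3 rose, and the 5 markers of dividing cells to 26.2 to 40.6 and 7.20 to 17.9 CPM, of which *Top2a* rose. *Flt1*, 1 of 2 endothelial markers tested, rose with apoE3 and with apoE4. With apoE4, 3 of the 8 astrocyte markers rose and they summed to 1571 to 5359 CPM, *Cspg4* of the oligodendrocyte lineage rose by 0.84 ± 0.19 on the log2 scale, and *Calb1* of the dentate granule list fell (−0.82 ± 0.19, edgeR adjusted p = 0.0278). With apoE2 edgeR with the block called *Top2a* alone of the listed markers, higher by 1.84 ± 0.34.

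With the libraries scaled to the summed counts of the 6 neuron markers, a scaling chosen after the data were seen, *Gabra2*, *Gabra4* and *Gabrb2* passed again with apoE3 in the blocked fit, where 1.56% of all genes tested were called lower. Their log2 fold changes were −0.30, −0.54 and −0.51 (edgeR adjusted p = 0.0316, 0.00820 and 0.00392), while the median over all genes tested stood at 0.12 on that scale. The other 4 did not pass, with *Gabra5* at −0.16 and *Gabrb1* at −0.15 (−0.26 and −0.25 with TMM scaling), *Gabra3* at −0.53 and *Gabrd* at −0.74. Of the 6 scaling genes, *Snap25* was itself called lower and *Tubb3* higher with apoE3 under TMM scaling with the block. The sum of the 6 does not separate types of neuron, so the part of shifts between them in these values was not tested. With each library left out of the blocked fit in turn, *Gabra4* and *Gabrb2* passed in 16 of 16 fits, for which the share of all genes tested is not given here. *Gabra2* passed in 10 of 16 and did not without apoE3 replicate 1, 3 or 4 or control replicate 1, 3 or 4. Of the libraries compared, it thus passed only without apoE3 replicate 2 or control replicate 2. Its other passes left out apoE2 or apoE4 libraries. Without apoE3 replicate 4 the blocked values of *Gabra4*, *Gabrb2* and *Gabra2* were −0.49 (edgeR adjusted p = 0.00986), −0.49 (edgeR adjusted p = 0.0108) and −0.28 (edgeR adjusted p = 0.102). *Gabra3* passed in 3 and *Gabrd* in 4 of the 16, and *Gabra5* and *Gabrb1* in 0, with blocked edgeR adjusted p from 0.0639 and 0.0517 upward.

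**Figure D5:**
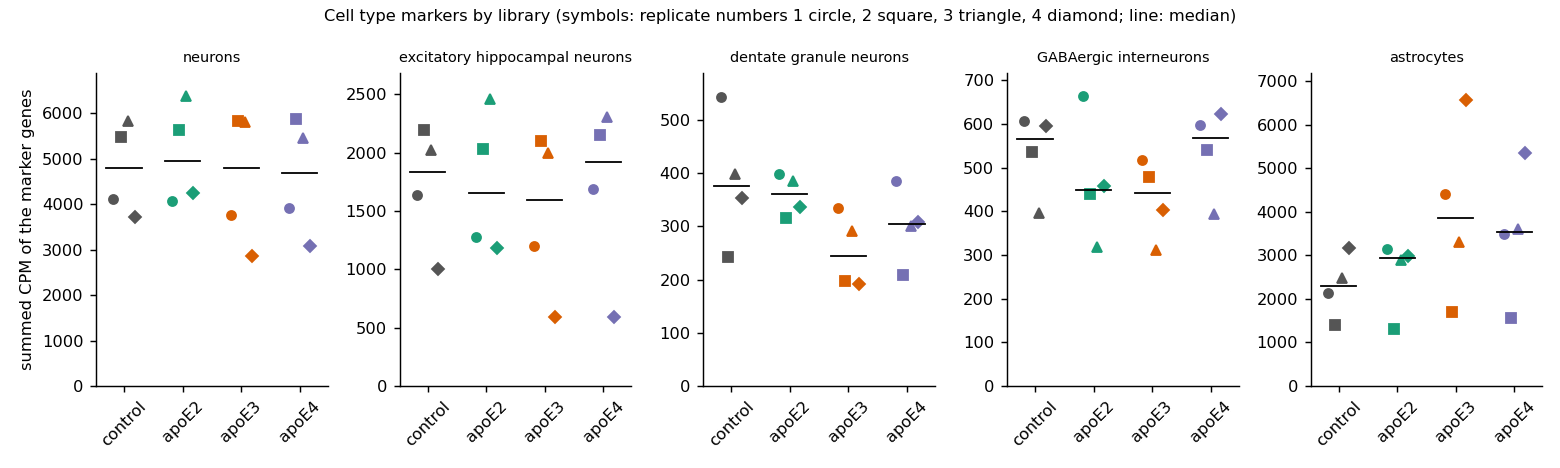
Summed CPM of 5 cell type marker lists in every library (axes from 0, symbols by replicate number, lines at the group medians). The apoE3 replicate 4 library (orange diamond) has the highest astrocyte sum, 6581 CPM, and the lowest neuron sum, 2849 CPM.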

How the data were processed

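RNA of 16 libraries was sequenced, and the deposited values are raw counts per gene, 1 file per library, which the authors made by STAR alignment to mm10 and HTSeq counting, without normalization. The annotation they counted and their strand setting are not given in the sources used here. Reads that HTSeq put on no single gene, 38.4 to 73.7% of a library, entered neither library sizes nor tests.

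The labels gave each library's group and replicate number. Counts were scaled by TMM and filtered with filterByExpr (minimum count 10, minimum total 15, minimum proportion 0.7), and 17038 genes were fitted over all 16 libraries with the quasi-likelihood test of edgeR 4.0.16 in R 4.3.3. Benjamini-Hochberg adjustment ran over all 17038 genes of a comparison. The study's methods name no block, so the main fit has none. The replicate number was then added as a block, because libraries that share a number deviated together from their group means, with correlations of 0.362 to 0.552 for number 1, 0.766 to 0.831 for 2, 0.620 to 0.671 for 3 and 0.681 to 0.790 for 4, against −0.830 to 0.569 for libraries of different numbers, and the labels do not state what a number stands for. The block lowered the common dispersion from 0.132 to 0.0178. Shares among the 4 alpha subunit genes described were compared by exact permutation; the plan took all alpha subunit genes, and this sum was set after the data were seen. The fitting script was tested on simulated data. Alternatives were DESeq2 1.42.0 with and without the block, its size factors in edgeR, other low-count filters, fits of 2 groups and each library left out.

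Exon lengths and positions are from GENCODE M21, to which 95.9% of symbols matched, and promoter windows from RefSeq (GRCm38.p6). The members, gene lists and comparisons were chosen with earlier results of these data known. Some genes of the receptor family and of the GABA lists are not reported here and are left out of the counts and medians of those lists, though not of the fits. Among the rest, the text names all members, the other subunits with a level, and from each other GABA list the 2 genes with the smallest p in each comparison with the control in the edgeR fit without the block, and every gene that edgeR called in either fit. Named besides are the markers and the 2 genes nearest to each member, and between isoforms the members with an unadjusted p under 0.05.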

Additional observations from a re-analysis of the deposited data

Results flagged for a closer look

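In 44 sets of 4 libraries (28 of subunit levels and 16 of alpha subunit shares), 3 had 1 library farther from the rest than Dixon's 95% limit for the gap divided by the range. The limit flags about 1 set in 20 by chance. *Gabra3* stood at 45.2 CPM in apoE3 replicate 2, where the gap was 0.933 of the range, and replicate 2 also held the highest *Gabra3* level in the control and apoE2 groups. *Gabrd* stood at 5.26 CPM in apoE3 replicate 3, below the other apoE3 libraries by 0.859 of the range. The share of *Gabra5* among the 4 alpha subunit mRNAs stood at 47.5% in control replicate 2, below the other controls by 0.940 of the range.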

How the results depend on the processing

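With apoE3 the count of called members was 0 in the main fit, 3 with the replicate block in edgeR and 5 in DESeq2 with the replicate block. With apoE4 DESeq2 with the replicate block called 1 member. The other GABA pathway genes went from 0 called to 1, 3 and 1 with the replicate block (apoE2, apoE3 and apoE4) and to 3, 6 and 1 in DESeq2 with it, with apoE3 and apoE4 a lower share than of all genes tested in both fits; the cause was not tested. Every other alternative, each library left out included, left the counts at 0 without the block. With the block, leaving out 1 library gave 2 to 5 called members with apoE3, and 5 without apoE3 replicate 2. The share of all genes tested called in these fits is not given here, so the counts are not read as particular to the members.

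In the comparisons with the control, the log2 fold changes of members that changed sign did so when 1 library was left out: with apoE2 *Gabra2* ran from −0.24 to 0.0612, *Gabra5* from −0.0226 to 0.19, *Gabrb1* from −0.12 to 0.21 and *Gabrd* from −0.44 to 0.21. With apoE3 *Gabra5* ran from −0.37 to 0.00186 and *Gabrb1* from −0.45 to 0.0258, the highest in each case without apoE3 replicate 4. With apoE4 *Gabra3* ran from −0.36 to 0.21, *Gabrb1* from −0.0232 to 0.32 and *Gabrd* from −0.29 to 0.21. Left out in turn, 1 library moved the difference in share among the 4 alpha subunits of *Gabra2* with apoE3 from −1.81 to 0.252 percentage points (the highest without control replicate 2), and with apoE4 that of *Gabra3* from −0.704 to 1.71 and of *Gabra4* from −0.645 to 0.409. With sign flips within the 4 pairs (the replicate block for shares) the smallest possible p is 0.125. Between apoE4 and apoE3 the values of *Gabra2* and *Gabra5* were −0.00345 and −0.0231 without and 0.04 and 0.0141 with the replicate block. *Gabrd* has the fewest counts of the 7 and the widest interval in the blocked fit, which limits what can be seen of it.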
